A study of Mus musculus with 6 samples.

Results

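The retinoblastoma (Rb) pocket protein genes and the cyclin-dependent kinase (CDK) inhibitor genes were examined together as 10 genes, Rb1, Rbl1, Rbl2, Cdkn1a, Cdkn1b, Cdkn1c, Cdkn2a, Cdkn2b, Cdkn2c and Cdkn2d, among 21911 protein-coding genes of the GENCODE M21 annotation of the mouse mm10 assembly. They were grouped by function, and every peak in their windows was kept whatever its value. Their chromatin was taken as all accessible peaks that overlapped a gene body or the 10 kb to either side of it. This gave 251 peaks in 6 libraries. Peaks of different libraries that overlapped were merged, which left 63 regions around these genes of 169881 in the whole series.

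The libraries were made by Omni-ATAC-Seq, an assay that marks accessible DNA by the adapters a transposase leaves there, from 50000 nuclei each of whole mouse hearts at postnatal day 1. All nuclei were purified through a 2.2 M sucrose cushion, and each of the 3 groups had 2 biological replicates. The Input libraries held wildtype nuclei straight from the cushion, whose density is the one the protocol uses to obtain CM nuclei rather than mixed nuclei, so they are not an unselected sample of the heart. The PCM1 libraries held wildtype nuclei recovered by magnet-assisted nuclear immunoprecipitation (MAN-IP) with an antibody to PCM1, a centriolar satellite protein found at the nuclear envelope of cardiomyocytes (CMs). The Myc libraries held Nkx2-5 lineage positive nuclei from Nkx2-5 Cre/+ hearts that also carried 1 copy of the Cre-dependent Sun1 reporter with GFP and Myc tags at the Rosa26 locus, recovered by MAN-IP with a Myc antibody. The Nkx2-5 lineage includes smooth muscle and endothelial cells as well as CMs. The Myc libraries differed from the others in genotype as well as in antibody, and these cannot be told apart.

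As background, the pocket proteins Rb (Rb1), p107 (Rbl1) and p130 (Rbl2) bind E2F transcription factors and hold S phase genes silent until cyclin-CDK complexes phosphorylate them. The CDK inhibitors act upstream of this step. The Cip/Kip proteins p21 (Cdkn1a), p27 (Cdkn1b) and p57 (Cdkn1c) bind whole cyclin-CDK complexes, and the INK4 proteins p16 (Cdkn2a), p15 (Cdkn2b), p18 (Cdkn2c) and p19Ink4d (Cdkn2d) bind CDK4 and CDK6 themselves. Cdkn2a also encodes p19Arf from a separate start and reading frame, and p19Arf protects p53 from Mdm2. Mouse CMs divide in fetal life and largely leave the cell cycle in the days after birth.

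Each peak was described by its summit pileup, the number of overlapping read tags at its highest point, and by its rank percentile, the place of its -log10 q-value among all peaks of its own library with 100 as the strongest and 0 standing for no peak. The lists held between 75336 and 131500 peaks per library. The genome-wide background level, a measure of depth, was 3.96 tags in Input replicate 1, 1.02 in Input replicate 2, 1.44 in both Myc libraries, and 0.977 and 0.903 in PCM1, a 4.38-fold span. A peak that was absent was therefore only not detectable at that depth. Raw pileups are given below in the order Input replicate 1, Input replicate 2, Myc replicate 1, Myc replicate 2, PCM1 replicate 1 and PCM1 replicate 2, and scale with depth. Groups were compared on quantile-normalised log2 summit pileups with limma, over the 48861 regions with a peak in all 6 libraries, and p-values were adjusted by Benjamini-Hochberg over all of them. No test was made on single values, because with 2 libraries on each side the smallest two-sided p of an exact permutation test is 0.333. For 2 libraries against the other 4, the smallest one-sided p of such a test is 0.0667. The share of all regions whose groups did not overlap was not computed. Statements below that groups did or did not overlap are therefore descriptions only.

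All 10 genes had a promoter peak, one within 1 kb of a transcription start site (TSS) of a protein-coding transcript, in all 6 libraries, against 59.7% of all protein-coding genes. Of the 63 regions, 22 had a peak in all 6 libraries, or 34.9% (Wilson 95% interval for counting error, 24.3 to 47.2%), against 28.8% of all regions. The interval treats the regions as independent, though 28 of them lay in the Rb1 window, so it is no test against the share of all regions. Promoters and other sites differed in how many were present in all 6 libraries. Of the 16 promoter regions, 12 were present in all 6 libraries, and of the 47 distal regions 10 were. Among the distal regions, 6 of the 11 that lay at a TSS of another gene were present in all 6, and 4 of the 36 that lay at no TSS. Shares over all promoter or all distal regions were not computed, so these counts cannot be called particular to these genes. A further 17 regions were called in 1 library, 5 of them in Input replicate 1, the deepest.

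None of the 63 regions was present in both libraries of 1 group and absent from the other 4 libraries. The share over all regions was 1.08% for Input, 1.84% for Myc and 0.254% for PCM1. With the strongest 75336 peaks of each library, 1 region was present in both Myc libraries alone, 3004 bp upstream of Cdkn1c. It had pileups of 52 and 63 tags there, and Input replicate 1, which listed it with 92 tags among its weaker peaks, lost it under this limit.

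**Figure D1:**
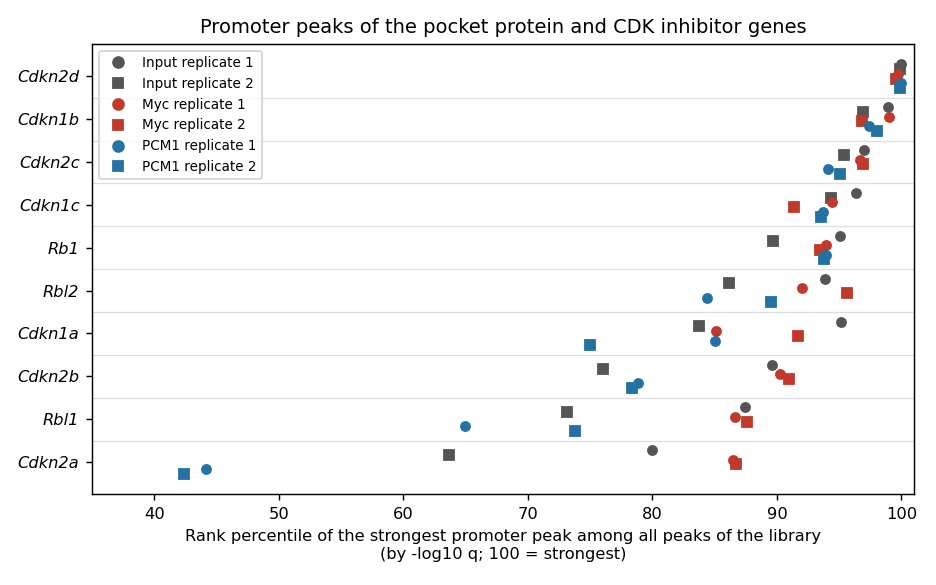
Rank percentile (horizontal axis, 100 is the strongest peak of a library) of the strongest promoter peak of each gene (rows, ordered by the mean) in each library (colours for the groups, shapes for the replicates). Cdkn2d sits between 99.6 and 100 in every library, while Cdkn2a runs from 42.4 and 44.2 in PCM1 to 86.5 and 86.7 in Myc.

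The promoters differed widely in strength. On the rank percentile scale, averaged over 6 libraries, Cdkn2d was highest at 99.8, followed by Cdkn1b at 97.9, Cdkn2c at 95.9, Cdkn1c at 94.0, Rb1 at 93.3, Rbl2 at 90.3, Cdkn1a at 86.0, Cdkn2b at 84.0, Rbl1 at 78.9 and Cdkn2a at 67.2. Of the neighbours in this order, Cdkn2d lay above Cdkn1b in every library, as did Cdkn2c above Cdkn1c, Cdkn2b above Rbl1 and Rbl1 above Cdkn2a. The remaining neighbours changed places between libraries. The ranges over the 6 libraries overlapped for every pair of neighbours except Cdkn2d and Cdkn1b. When peaks were instead ranked by the authors' fold enrichment over local background, an alternative chosen after seeing the data, the averages were closer, and Cdkn2d at 89.9 no longer led while Cdkn1a at 69.9 was lowest.

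Among the pocket protein genes, Rb1 had the most regions. Its promoter region at chr14:73325195-73326365 had pileups of 368, 85, 164, 144, 99 and 98 tags, and its rank percentile lay between 89.7 and 95.1. After normalisation these were 135 and 119.5 tags in Input, 151 and 132 in Myc, with 150 and 151 in PCM1, so that Myc overlapped with both other groups and PCM1 lay above Input. The log2 difference was 0.15 ± 0.15 (SE) between Myc and Input, 0.24 ± 0.15 between PCM1 and Input and -0.09 ± 0.15 between Myc and PCM1, and none passed the test (adjusted p = 0.561, 0.329 and 0.695).

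A second Rb1 promoter region was a single peak of 17 tags in PCM1 replicate 1, 847 bp into the gene. The other 26 regions of Rb1 were distal, in a window of 162 kb, beside 78.6 kb for Rbl1, the next longest. Of all 28, 9 were called in 1 library, 4 of these in Input replicate 1, 3 in 2 libraries, 12 in 3 to 5 and 4 in all 6. The distal regions inside Rb1 that lay at no TSS were weak, with mean rank percentiles between 0.324 and 36.4. One of them (chr14:73226911-73227485) was present in all 6 libraries, with pileups of 26, 11, 14, 15, 13 and 10 tags. A stronger one beyond the 3′ end, in an intron of the neighbouring gene Rcbtb2 (chr14:73179072-73179710), had pileups of 83, 24, 54, 52, 30 and 31 tags and did not pass in any comparison.

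The strongest distal region in the Rb1 window lay at the TSS of Lpar6, a lysophosphatidic acid receptor gene that sits inside an Rb1 intron, at chr14:73237727-73238369. Its pileups were 161, 36, 92, 105, 44 and 22 tags, with a mean rank percentile of 79.6. Normalised, it stood at 60.7 and 52.1 tags in Input, 85.9 and 97.1 in Myc, with 63.9 and 32.4 in PCM1, so both Myc libraries lay above the other 4. It was 2.01-fold higher in Myc than in PCM1 (log2 difference 1.00 ± 0.25, adjusted p = 0.00289), and the differences from Input did not pass the test. The difference was 0.92 without Myc replicate 2 and 0.51 without PCM1 replicate 2. The call was lost in 5 of 14 alternatives, among them the fold enrichment scale (adjusted p = 0.152) and the rank percentile scale (0.061).

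**Figure D2:**
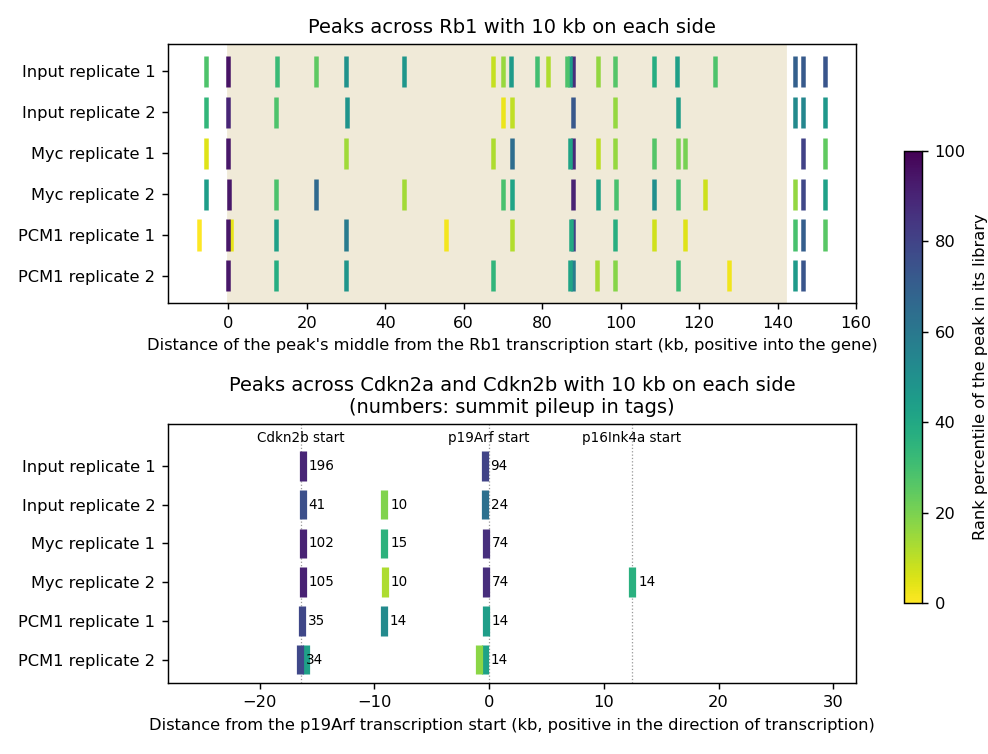
Peaks of each library (rows) across Rb1 (top, shaded gene body) and across Cdkn2a and Cdkn2b (bottom), by distance in kb from the Rb1 and p19Arf starts, coloured by rank percentile. At the p19Arf start the summit pileups are 74 and 74 tags in Myc and 14 and 14 in PCM1, and at the p16Ink4a start the single peak is in Myc replicate 2.

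Rbl1 encodes p107, whose gene is a textbook E2F target, and its promoter is shown because it held the one E2F match among the promoter windows of these genes. The 250 bases upstream of the RefSeq TSS (GRCm38.p6, the assembly of mm10, chr2:157204535-157204784, minus strand, written 5′ to 3′ along the gene) are given with matches to an E2F site and a GC box (GGGCGG) in capitals.
Rbl1 promoter: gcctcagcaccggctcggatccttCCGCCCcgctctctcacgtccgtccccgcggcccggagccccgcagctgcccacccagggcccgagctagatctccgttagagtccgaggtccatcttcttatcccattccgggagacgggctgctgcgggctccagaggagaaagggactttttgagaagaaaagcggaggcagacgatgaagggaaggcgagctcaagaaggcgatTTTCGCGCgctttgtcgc
The E2F match, TTTCGCGC, lay 18 to 11 bases before the TSS, and the CCGCCC is a GC box on the other strand.

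The Rbl1 promoter region (chr2:157203981-157205131) had pileups of 163, 39, 81, 90, 26 and 31 tags and rank percentiles of 87.4, 73.1, 86.6, 87.6, 65.0 and 73.8. Normalised pileups were 61.5 and 56.3 tags in Input, 75.9 and 83.5 in Myc, with 38.0 and 45.4 in PCM1. The 3 groups did not overlap, with Myc highest and PCM1 lowest. It was 1.92-fold higher in Myc than in PCM1 (log2 difference 0.94 ± 0.23, adjusted p = 0.00211), and 9.97% of the 13565 promoter regions tested had a difference at least as large. Neither difference from Input passed (adjusted p = 0.222 for Myc and 0.166 for PCM1). The call was lost on the fold enrichment scale (adjusted p = 0.342) and on the rank percentile scale (0.14).

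An intronic region of Rbl1, with its summit 34204 bp past the TSS, at chr2:157170128-157170623, went the other way. Its pileups were 74, 15, 20, 9, 25 and 20 tags, which normalised to 27.9 and 21.5 in Input, 18.9 and 9.42 in Myc, with 36.4 and 29.5 in PCM1. Both PCM1 libraries lay above the other 4. PCM1 was 2.45-fold higher than Myc (SE 0.35 on the log2 scale, adjusted p = 0.00603). Without Myc replicate 2 the difference was -0.79. The call was lost in 3 of 13 alternatives, among them the fold enrichment and rank percentile scales. It was the only region of these genes that was lower in Myc than in PCM1, against 13.8% of all regions tested. The 300 bases around its summit (chr2:157170158-157170457, GRCm38.p6, minus strand) overlapped no annotated exon, and the capitals mark a match to the TEAD motif (GGAATG) and to the NKX2-5 motif (CACTTNA or TNAAGTG).
Rbl1 intron: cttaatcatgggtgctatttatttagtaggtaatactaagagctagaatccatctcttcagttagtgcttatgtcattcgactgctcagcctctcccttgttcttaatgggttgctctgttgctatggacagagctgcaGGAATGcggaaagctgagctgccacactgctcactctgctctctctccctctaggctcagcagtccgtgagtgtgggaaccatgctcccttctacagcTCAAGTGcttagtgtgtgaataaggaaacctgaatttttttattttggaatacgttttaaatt
Of the other 4 distal regions of Rbl1, 3 were called in 1 library and the fourth, in an intron at chr2:157184546-157185579, in 5.

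Rbl2 encodes p130, the pocket protein of resting cells and of the DREAM complex. Its promoter region (chr8:91069691-91071078) had pileups of 318, 74, 122, 180, 52 and 73 tags. Normalised, these were 117 and 104 tags in Input, 113 and 166 in Myc, with 76.5 and 111 in PCM1, so Myc replicate 1 and PCM1 replicate 2 were nearly alike. The difference of 0.57 ± 0.19 between Myc and PCM1 passed the test (adjusted p = 0.0217). It fell to 0.29 without Myc replicate 2 and to 0.31 without PCM1 replicate 1. The call was lost in 4 of 14 alternatives, among them the fold enrichment scale. The strongest distal region of the Rbl2 window, at the TSS of the neighbouring gene Aktip (chr8:91133544-91134529), had a mean rank percentile of 99.9 and pileups of 1391, 391, 376, 442, 386 and 370 tags. It did not pass in any comparison, with differences between -0.13 and 0.11. The remaining 5 distal regions of Rbl2 were present in at most 4 libraries.

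Among the Cip/Kip genes, Cdkn1a had a strong peak at its main TSS and another in an intron just past it, and none at its outlying starts. The region at the TSS (chr17:29093504-29093902) had pileups of 254, 78, 96, 92, 66 and 51 tags, and it did not pass in any comparison (log2 differences -0.21 ± 0.19, -0.24 ± 0.19 and 0.02 ± 0.19 for Myc against Input, PCM1 against Input and Myc against PCM1). The intronic region (chr17:29094357-29095801) was counted as promoter because it began within 1 kb of the TSS, while its summit lay 1728 bp past the TSS.

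That intronic region had pileups of 423, 114, 157, 134, 52 and 63 tags. Normalised, it stood at 155 and 158 tags in Input, 145 and 123 in Myc, with 76.5 and 94.7 in PCM1, and both PCM1 libraries lay below the other 4. PCM1 was lower than Input by 0.87 ± 0.16 on the log2 scale (adjusted p = 0.000901), and Myc was 1.57-fold higher than PCM1 (0.65 ± 0.16, adjusted p = 0.00283). The difference between Myc and Input did not pass (-0.23 ± 0.16, adjusted p = 0.396). Without Input replicate 2 the difference between PCM1 and Input was -0.85, and without Myc replicate 1 that between Myc and PCM1 was 0.53. Each of these 2 calls was lost in 3 of 14 alternatives. On the fold enrichment scale adjusted p was 0.0858 for PCM1 against Input and 0.061 for Myc against PCM1. The intronic peak had more tags than the one at the TSS in every library but PCM1 replicate 1, where it had 52 and the TSS 66. In Input replicate 1 and Myc replicate 2 it was called as 1 long peak that reached within 1 kb of the TSS, and it then set the promoter rank percentile of Cdkn1a. In the other 4 libraries it was called as a separate peak beyond 1 kb, at rank percentiles of 91.9 in Input replicate 2, 93.6 in Myc replicate 1, 77.3 in PCM1 replicate 1 and 82.3 in PCM1 replicate 2, and the peak at the TSS was used instead. The place of Cdkn1a in the order of promoters therefore rests on how its peaks were split.

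The upstream start of Cdkn1a, for transcript Cdkn1a-202 at position 29090979 of chromosome 17, and a downstream start at 29097900 had no peak within 1 kb in any library. The upstream start is shown because the p53 response of this gene is its best known control, and its window held 2 matches to the p53 half-site, in capitals. Below it stand the 300 bases around the summit of the intronic region, which overlapped no annotated exon, with a GC box in capitals. Both are on the plus strand of GRCm38.p6, at chr17:29090729-29090975 and chr17:29095359-29095658.
Cdkn1a upstream start, no peak in any library: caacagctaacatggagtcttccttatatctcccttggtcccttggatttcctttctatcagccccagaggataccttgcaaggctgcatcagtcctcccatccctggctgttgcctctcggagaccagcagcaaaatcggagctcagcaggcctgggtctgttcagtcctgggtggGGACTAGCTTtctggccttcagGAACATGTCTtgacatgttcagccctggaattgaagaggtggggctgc
Cdkn1a intron, peak in all 6 libraries: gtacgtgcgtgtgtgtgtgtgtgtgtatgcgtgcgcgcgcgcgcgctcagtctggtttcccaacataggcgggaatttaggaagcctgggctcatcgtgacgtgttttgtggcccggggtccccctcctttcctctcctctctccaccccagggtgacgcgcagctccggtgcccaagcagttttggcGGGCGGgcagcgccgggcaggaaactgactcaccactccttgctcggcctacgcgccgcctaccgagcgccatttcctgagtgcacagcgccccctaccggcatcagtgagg
The 2 windows differed in CpG content. The ratio of observed to expected CpG was 0.0892 in the 300-base promoter window of the upstream start and 0.894 around the intronic summit, where the median over all promoters was 0.383.

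Cdkn1b, which encodes p27, had a strong and even promoter region at chr6:134919670-134920873, with pileups of 811, 183, 321, 240, 172 and 186 tags and rank percentiles between 96.8 and 99.0. The log2 differences were 0.07, 0.03 and 0.05, each with an SE of 0.13, and none passed. Its strongest distal region lay 8136 bp past the last Cdkn1b TSS, at the start of the noncoding RNA gene Lockd (chr6:134927977-134929139). There the pileups were 333, 89, 150, 141, 64 and 70 tags, and the normalised pileup was 94.5 and 106 tags in PCM1 and between 123 and 139 in the other 4. It was 1.34-fold higher in Myc than in PCM1 (0.42 ± 0.16, adjusted p = 0.0432), a call that was lost in 8 of 14 alternatives, with adjusted p up to 0.721.

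Cdkn1c, the imprinted gene of p57, had its promoter region at chr7:143460736-143461585, with pileups of 498, 138, 185, 140, 117 and 115 tags. Normalised, it was 180 and 188 tags in Input, 171 and 128 in Myc, with 178 and 177 in PCM1. It was the promoter of the set with the lowest value for Myc against PCM1, -0.27 ± 0.14 (adjusted p = 0.164), and it did not pass. A second promoter region, inside the gene at chr7:143459228-143459839, was present in 5 libraries and absent from PCM1 replicate 2. Of the 3 distal regions, all upstream, the region 5448 bp away (chr7:143466326-143466653) was present in all 6 with pileups of 90, 26, 33, 43, 27 and 19 tags and differences between -0.12 and 0.07. The region 3004 bp away was absent from both PCM1 libraries and Input replicate 2, and the region 9074 bp away was absent from PCM1 replicate 1.

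Cdkn2a and Cdkn2b lie side by side, and their 3 starts are shown because they differed in how many libraries had a peak and because p19Arf and Cdkn2b passed for Myc against PCM1. The sequences end at the annotated TSS or before the first exon base, on the minus strand of GRCm38.p6, at chr4:89294654-89294869 for p19Arf, chr4:89282193-89282442 for p16Ink4a and chr4:89311040-89311282 for Cdkn2b. Capitals mark a GC box in the p19Arf sequence and, in Cdkn2b, a cyclic AMP response element (CRE, TGACGTCA), 46 to 39 bases before the RefSeq TSS.
Cdkn2a p19Arf start, peak in all 6 libraries: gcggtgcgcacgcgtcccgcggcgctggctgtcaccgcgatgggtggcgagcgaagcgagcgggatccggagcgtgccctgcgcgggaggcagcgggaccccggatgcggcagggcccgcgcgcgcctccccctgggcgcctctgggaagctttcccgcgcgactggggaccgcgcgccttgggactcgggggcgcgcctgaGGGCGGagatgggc
Cdkn2a p16Ink4a start, peak in 1 library: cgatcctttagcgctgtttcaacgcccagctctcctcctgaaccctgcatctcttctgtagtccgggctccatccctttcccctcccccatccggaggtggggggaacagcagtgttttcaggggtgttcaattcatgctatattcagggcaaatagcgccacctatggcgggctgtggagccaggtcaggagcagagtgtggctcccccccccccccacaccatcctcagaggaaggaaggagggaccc
Cdkn2b start, peak in all 6 libraries: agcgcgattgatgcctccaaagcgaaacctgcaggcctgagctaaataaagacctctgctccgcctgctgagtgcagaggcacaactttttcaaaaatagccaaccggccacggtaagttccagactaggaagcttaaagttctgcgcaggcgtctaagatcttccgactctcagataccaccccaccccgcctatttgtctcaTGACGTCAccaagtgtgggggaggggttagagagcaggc
The promoter window of p19Arf had 45 CpG in 300 bases and an observed to expected ratio of 1.04, that of p16Ink4a 12 CpG and 0.442, and that of Cdkn2b 18 CpG and 0.722.

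The p19Arf start carried the largest difference of the set. Its region (chr4:89294397-89295690) had pileups of 94, 24, 74, 74, 14 and 14 tags and rank percentiles of 80.0, 63.6, 86.5, 86.7, 44.2 and 42.4. Normalised pileups were 35.7 and 35.1 tags in Input, 69.2 and 68.4 in Myc, with 20.4 and 20.9 in PCM1. The replicates of each group lay close together and the groups did not overlap. It was 3.33-fold higher in Myc than in PCM1 (log2 difference 1.74 ± 0.28, adjusted p = 1.89e-05), a size reached by 0.464% of all promoter regions and 0.231% of all regions tested. The call held in all 14 alternatives, with adjusted p up to 0.0287.

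Myc was also higher than Input at the p19Arf start, by 0.96 ± 0.28 (adjusted p = 0.0216). This call was lost in 7 of 14 alternatives, including when any 1 of the 4 Input and Myc libraries was left out, where the difference stayed between 0.92 and 0.97 and adjusted p lay between 0.112 and 0.205. PCM1 stood at -0.78 ± 0.28 against Input and did not pass (adjusted p = 0.0744). The p16Ink4a start, further into the gene, had no peak in 5 libraries and a weak one of 14 tags, at rank percentile 36.4, in Myc replicate 2.

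The Cdkn2b promoter region (chr4:89310468-89311334) had pileups of 196, 41, 102, 105, 35 and 34 tags. Normalised, they were 73.0 and 59.1 in Input, 95.2 and 97.1 in Myc, with 50.7 and 50.2 in PCM1, in the same order of groups as at p19Arf. Myc was 1.91-fold higher than PCM1 (0.93 ± 0.21, adjusted p = 0.00104), which was lost on the fold enrichment scale (adjusted p = 0.43) and on the rank percentile scale (0.114). Against Input, Myc stood at 0.55 ± 0.21 (adjusted p = 0.0829) and PCM1 at -0.38 ± 0.21 (adjusted p = 0.267). The single distal region of the pair, 7206 bp past the Cdkn2b TSS at chr4:89303641-89303996, had 10 to 15 tags in 4 libraries and no peak in Input replicate 1, the deepest, or in PCM1 replicate 2.

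Cdkn2c, which encodes p18, had 3 promoter regions. The main one, at chr4:109666047-109667295, had pileups of 516, 147, 219, 231, 108 and 114 tags, and normalised pileups of 187 and 199 in Input, 207 and 217 in Myc, with 164 and 176 in PCM1. The groups did not overlap, but the difference of 0.32 ± 0.13 between Myc and PCM1 missed the threshold (adjusted p = 0.0532). A smaller region (chr4:109665601-109665888), with its summit 367 bp upstream of the downstream start, had pileups from 26 to 126 tags and did not pass. The region over the downstream start itself (chr4:109665197-109665464), with its summit 29 bp past it, was called in Input replicate 1 and both Myc libraries. The distal region beyond the 3′ end of the gene, at the start of the noncoding RNA gene 9630013D21Rik (chr4:109656818-109658051), had pileups of 129, 28, 56, 62, 55 and 48 tags. Its normalised pileup of 80.6 and 71.3 tags in PCM1 lay above 48.8 and 40.9 in Input, a difference of 0.76 ± 0.23 (adjusted p = 0.033), which was lost in 8 of 14 alternatives. The distal region at the Faf1 start (chr4:109676095-109677175), the strongest of the Cdkn2c window with a mean rank percentile of 96.0, did not pass in any comparison.

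Cdkn2d, which encodes p19Ink4d, had the promoter with the highest mean rank percentile and the narrowest range of it over the 6 libraries. Its region (chr9:21290886-21291767) had pileups of 1659, 467, 433, 430, 422 and 403 tags, and normalised pileups of 553 and 536 in Input, 536 and 485 in Myc, with 550 and 539.5 in PCM1. The differences were -0.09, 0.00 and -0.10, each with an SE of 0.08. Its strongest distal region, at the Kri1 start (chr9:21287658-21288393), had a mean rank percentile of 95.7 and differences between -0.23 and 0.13 that did not pass.

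**Figure D3:**
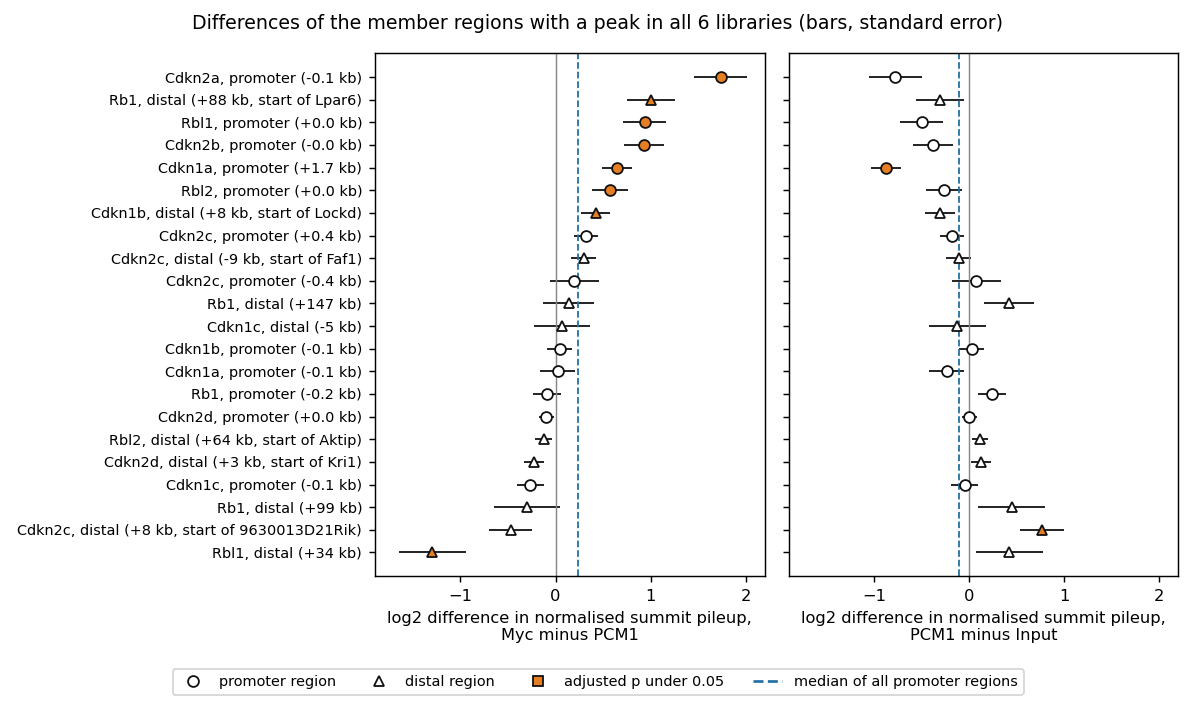
Log2 difference in normalised summit pileup (horizontal axis, bars are the standard error) of the 22 regions present in all 6 libraries, Myc minus PCM1 on the left and PCM1 minus Input on the right, with each summit's distance from a TSS of its gene. Orange symbols have adjusted p under 0.05, 8 on the left and 2 on the right, and the dashed lines mark the median of all promoter regions, 0.24 and -0.11.

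Across the 22 regions tested, 7 were higher in Myc than in PCM1, against 14.7% of all regions, and 1 was lower. Promoters in general lay on the same side. Among all 13565 promoter regions tested, 32.8% were higher in Myc than in PCM1 and 8.19% lower, with a median log2 difference of 0.24, where the median of all regions was -0.01. Of the 12 promoter regions here, 5 were higher (Cdkn2a, Cdkn2b, Rbl1, Rbl2 and the Cdkn1a intron) and 0 lower, with a median of 0.26. A share of 41.7% is near that background and is no result about these genes as a group. By role, 2 of 3 promoter regions of pocket protein genes, 1 of 4 of the Cip/Kip genes and 2 of 5 of the INK4 genes were higher. On the rank percentile scale 3 member regions were higher and 0 lower, and on the fold enrichment scale 1 was higher, the p19Arf start. With median scaling the split was 8 higher and 4 lower.

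Between Myc and Input, 1 of the 22 regions was higher, the p19Arf start, against 4.72% of all regions and 11.4% of promoter regions, and 0 were lower, against 6.74%. An unadjusted p under 0.05 was found for 6 of the 22, beside 12631 of all 48861. Between PCM1 and Input, 1 region was higher, at 9630013D21Rik beside Cdkn2c, against 3.61% of all regions, and 1 was lower, in the Cdkn1a intron, against 5.21% of all regions and 12% of promoter regions. The 3 comparisons share libraries and are not independent of each other.

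**Figure D4:**
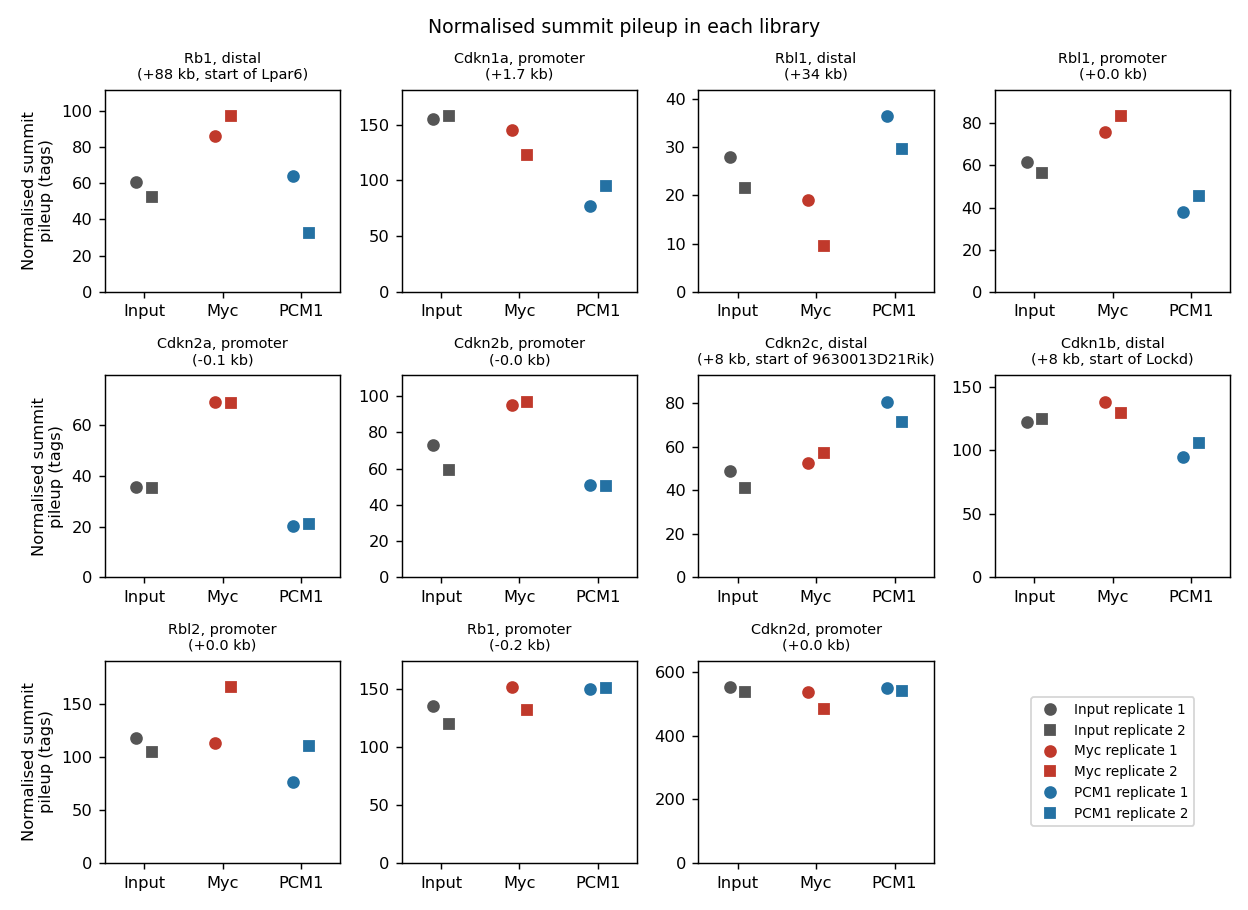
Normalised summit pileup in tags (vertical axes from 0) in each library for the 9 regions that passed in a comparison and, for contrast, the Rb1 and Cdkn2d promoters. Circles are replicate 1 and squares replicate 2, and at the Cdkn2a promoter Myc lies at 69.2 and 68.4 and PCM1 at 20.4 and 20.9.

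In sequence, the promoter regions of these genes were richer in CpG than the distal regions. Over 300 bases around the summit, the median ratio of observed to expected CpG was 0.869 in the 16 promoter regions and 0.204 in the 47 distal ones, beside 0.223 over all regions. A GC box stood in 15 of the 16 promoter regions and in 5 of the 47 distal regions, beside 13.5% of all regions. Those 5 included the regions at the Faf1, Aktip and Kri1 starts. The CCAAT box (CCAAT) stood in 8 promoter and 15 distal regions, beside 31.8%. The GATA motif (AGATAA), TEAD and NKX2-5 motifs stood in 0 promoter regions and in 10, 7 and 9 distal regions, beside 17.1%, 20.3% and 15.9% of all regions. MEF2 motif matches were in 9 regions (6.29% of all regions), p53 half-sites in 9 (10.7%), TATA boxes (TATAAA) in 7 (13.1%), E-boxes (CACGTG) in 4 (5.74%), E2F matches (TTTCGCGC or TTTGGCGC) in 2 (0.357%) and the CRE in 1 (0.71%). The E2F matches were in the Rbl1 promoter region and in the distal region at the Faf1 start. All motifs were searched on both strands. The shares over all regions mix promoters with other sites, and none over promoter regions alone was computed around summits. Among 32817 RefSeq promoter windows, 35.6% held a GC box and the median CpG ratio was 0.383.

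In the RefSeq promoter windows, from 250 bases before to 50 after a TSS, 8 of the 10 genes were found with 11 windows, and Rb1 and Cdkn1c were not among them. E2F was matched in 1 of 11 windows (0.814% of 32817 promoters), the CRE in 1 (1.79%), GC boxes in 9 (35.6%), CCAAT boxes in 4 (37.4%) and p53 half-sites in 2 (8.36%). TATA, GATA, NKX2-5 and MEF2 motifs were in 0 of 11 (13.6%, 11.2%, 11.5% and 3.69%). The CCAAT and GC box matches of the p16Ink4a window shared letters. The E-box and the TEAD motif were in 1 window each (7.15% and 14.7%). A match is a string of letters and was not tested as a binding site.

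The other genes of the pathway, 41 in 4 lists, all had a promoter peak in all 6 libraries, against 59.7% of all protein-coding genes. Of the 12 cyclins and kinases of G1 and S phase, 2 were higher in Myc than in PCM1 and 0 lower. Of the 10 E2F and DP genes 3 were higher, of the 7 DREAM and MuvB genes 3, and of the 12 regulators of CDK inhibitor levels 8 were higher and 1 lower. Over all promoter regions 32.8% were higher and 8.19% lower. The counts of higher genes in the first 2 lists lie below that share and those in the last 2 above it. The lists were not tested as sets. The list medians were 0.23, 0.26, 0.12 and 0.52, beside 0.24 over all promoter regions. E2f7, a repressor of the E2F family, was higher in Myc than in PCM1 by 1.13 ± 0.18 (adjusted p = 1.39e-05). Skp2 and Fbxw7, which mark p27 and cyclin E, respectively, for degradation, were higher by 0.77 ± 0.14 and 0.57 ± 0.11, and Cdk4 by 0.54 ± 0.11. All 4 were also lower in PCM1 than in Input, E2f7 by 0.78 and Cdk4 by 0.50. Of the DREAM genes, Lin9 was higher by 0.89 ± 0.21 and Dyrk1a, the kinase that assembles the complex, by 0.63 ± 0.13. Dyrk1a was also lower in PCM1 than in Input, by 0.57, and Lin9 was higher in Myc than in Input, by 1.05. Foxo1, an activator of Cdkn1a and Cdkn1b, was higher by 0.68 ± 0.15 against PCM1 and by 1.12 against Input. Tbx3, a repressor of the Cdkn2a locus, was lower in Myc than in PCM1 by 0.66 ± 0.11 (adjusted p = 2.16e-05).

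Against Input, Myc was higher at 1, 2, 1 and 3 genes of the 4 lists and lower at 1, 0, 0 and 1. PCM1 was higher than Input at 0, 0, 0 and 1 and lower at 2, 1, 3 and 2. Over all promoter regions the shares were 11.4% higher and 4.67% lower for Myc and 2.74% higher and 12% lower for PCM1.

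Marker promoters of heart cell types were read against the same shares of all promoter regions, 32.8% higher and 8.19% lower in Myc than in PCM1 with a median of 0.24. Of 10 CM markers tested, 6 were lower in Myc than in PCM1 and 0 higher (median -0.93), among them Myh6 at -1.37 ± 0.10 and Tnnt2 at -1.01 ± 0.11. Against Input, 6 were lower in Myc (median -0.58), and 2 were higher in PCM1 than in Input (0.19). Of 9 fibroblast markers 3 were higher and 0 lower (median 0.56), of 11 endothelial markers 2 and 0 (0.27), and of 9 smooth muscle and pericyte markers 1 and 1 (-0.36). For Myc against PCM1, the fibroblast and endothelial counts are near or below the share of all promoters, while their medians of 0.56 and 0.27 lie above 0.24. Against Input, Myc was higher at 1 fibroblast and 2 endothelial markers and lower at 0 (medians 0.19 and 0.39). For smooth muscle and pericyte markers it was higher at 0 and lower at 1 (-0.15). Over all promoter regions 11.4% were higher and 4.67% lower in Myc than in Input, with a median of 0.14. The mean rank percentile of the 12 CM markers was 89.3 and 81.9 in Input, 72.4 and 77.1 in Myc, with 81.5 and 78.7 in PCM1. That of the 12 fibroblast markers was 72.7 and 58.8, 69.3 and 73.4, and 58.1 and 53.1, and that of the endothelial markers 74.7 and 47.4, 74.9 and 77.6, and 59.6 and 60.6. For smooth muscle and pericyte markers it was 73.1 and 54.7, 59.4 and 66.1, and 59.8 and 51.0. The mean over the immune list was at most 15.2 in a library, with Cd14 and Spi1 the highest genes at up to 49.9 and 69.1 in Input replicate 1, and 7 of the 12 (Ptprc, Cd68, Adgre1, Csf1r, Itgam, Fcgr1 and Cx3cr1) had no promoter peak in any library. All 6 libraries went through the cushion meant to yield CM nuclei. The part of cell composition in the differences at Cdkn2a, Cdkn2b, Rbl1, Rbl2 and Cdkn1a was not tested. In bulk libraries a difference in the share of nuclei of a type and a difference in accessibility per nucleus cannot be told apart.

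The promoter with the widest range over the 6 libraries was that of Cdkn2a. By Euclidean distance between the 6 promoter rank percentiles, the nearest of 21910 other genes were Zkscan3 (distance 4.60), Ppt1 (6.34) and Psmc1 (8.04). Zkscan3 stood at 82.4 and 61.3 in Input, 88.7 and 87.7 in Myc, with 45.0 and 40.6 in PCM1.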

How the data were processed

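Per the submitters' processing notes, reads were handled with FastQC 0.11.5, Bowtie2 2.3.3.1, Picard 2.2.1, bedtools 2.7.1, MACS2 2.1.0.20160309 and HOMER on mm10. The authors deposited 1 MACS2 peak list per library, with a score, a fold enrichment over local background, the -log10 p-value and -log10 q-value, and the summit offset of each peak. The score was not used as a measure. Read totals were not used here, and depth was judged from the background level in the lists.

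From these, summit pileups were recovered from the fold and -log10 p-value, and between 99.9977 and 100% per library came out whole within 0.02 tags. Pileups of the 48861 regions in all 6 libraries were quantile-normalised on the log2 scale and fitted with limma 3.58.1 (R 4.3.3) with 1 mean per group and eBayes with a trend, without a replicate block. Adjusted p under 0.05 counted as passing. On simulated data for Myc against Input over 48861 regions, 34% of 2-fold and 95% of 3-fold changes were recovered. The spread between simulated libraries was assumed rather than estimated from these libraries, and the changed Myc values had Poisson spread alone. These shares therefore need not hold for the real libraries. The 2 replicates per group are labelled biological. Differences between replicates 1 and 2 were not correlated between groups (correlations between -0.0039 and 0.0057). Unequal depth of the replicates could hide a shared preparation, so pairing is not excluded. Named regions were each gene's promoter regions, its strongest distal region and every region that passed, with some others given by location, and named pathway genes were the 8 with the smallest adjusted p. The genes, lists and tests were chosen with earlier results of these data known. Alternatives covered the scale, scaling, peak threshold, filters, the block and leaving out each library.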

Additional observations from a re-analysis of the deposited data

How the results depend on the processing

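Depth differed between libraries, 2 replicates gave little power for 2-fold changes in the simulation, and the peak lists hold only what was called. In the comparisons of Myc with Input, PCM1 with Input and Myc with PCM1, 5597, 4310 and 13884 regions passed (2306 higher and 3291 lower, 1766 and 2544, 7159 and 6725), of which 1, 2 and 8 belonged to these genes. On the fold enrichment scale the counts were 4, 72 and 2712 (4 and 0, 12 and 60, 2614 and 98) with 0, 0 and 1 of these genes, where limma gave 1 and 2 member regions an unadjusted p under 0.05 in the first 2 comparisons. On the rank percentile scale they were 457, 918 and 5085 (95 and 362, 48 and 870, 4170 and 915) with 0, 1 and 3, and 0 member regions had an unadjusted p under 0.05 for Myc against Input. Without a trend in eBayes they were 9, 37 and 8640 (6 and 3, 22 and 15 in the first 2) with 0, 0 and 4, with 4 and 5 at an unadjusted p under 0.05 in the first 2. Median scaling gave 3 member regions for Myc against Input (1 higher, 2 lower), and a split of 1408 higher and 3863 lower for PCM1 against Input. With equal numbers of peaks, 1 member region was in both Myc libraries alone. The cause of these changes was not tested.

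Leaving out 1 library at a time gave 971 to 7259 regions for Myc against Input (members 0 to 3), 368 to 3577 for PCM1 against Input (members 0 to 2) and 8085 to 12410 for Myc against PCM1 (members 6 to 7). The group left with 1 library was assumed to vary like the others. Member regions numbered 58 to 63, of which 34.9 to 42.6% were in all libraries, 0 to 1 in Input alone, 0 to 2 in Myc alone and 0 in PCM1 alone, and 10 genes kept a promoter peak. The replicate block gave 5801, 4490 and 13986 regions and 1, 2 and 8 of these genes, and it changed no call among them. Of 153 alternatives for the 9 regions that passed, 108 kept the call, 45 lost it and 0 reversed.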
